A study of Mus musculus with 6 samples.

Results

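The 3 vehicle embryos gave the baseline transcriptome of the mouse dorsal telencephalon, the vesicle wall that becomes the cerebral cortex, at E13.5. They are the 3 of 6 libraries in the series whose titles name a vehicle injection, numbered 7, 8 and 9, and all 37991 Ensembl genes of each library were used. The embryos were of the outbred CD1 strain and were injected into the ventricle of the telencephalon with phosphate-buffered saline holding 0.1% bovine serum albumin. RNA came from formalin-fixed coronal cryosections on slides, taken rostral to the hippocampus, so each library pools all cells on the sections. Uninjected embryos are not analysed here, so the baseline includes the injection itself, and the labels do not give the time between injection and collection. Levels are RPKM (reads per kilobase of gene model, scaled to the reads of the library), listed in the order vehicle 7, 8 and 9, and a gene was called detected at an RPKM of at least 1 in all 3 libraries.

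In the embryonic cortex, radial glia line the ventricle and divide to renew themselves or to give neurons. They pass through a basal intermediate progenitor marked by Eomes before the first projection neurons, marked by Tbr1 and Neurod6, settle in the preplate and cortical plate. Pax6 and Emx1 are homeobox factors of the dorsal progenitors, while Dlx and Gsx factors specify the ventral territory (subpallium) from which GABAergic interneurons migrate in. Type I interferon is a cytokine that signals through factors such as Stat2 and Irf9 to a set of antiviral genes.

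The total of deposited counts over all genes was 61489462, 68101511 and 64225328. Odd counts were absent from vehicle 9, whereas even numbers made up 51.9% and 51.8% of the counts above 0 in vehicle 7 and vehicle 8. Dividing by 2 would leave vehicle 9 a sum of 32112664. Of the detected genes, 74.1%, 72.9% and 57.3% had over 99% of their span covered by reads. Vehicle 7 carried Y-linked transcripts (Ddx3y at 8.71 RPKM) and Xist at 0.028 RPKM, while vehicle 8 and vehicle 9 carried Xist, the X-inactivation RNA, at 45.9 and 49.2 RPKM. Of the other X-linked genes listed, Eif2s3x (44.0, 74.1 and 70.8 RPKM), Kdm5c (17.9, 24.1 and 24.1 RPKM) and Kdm6a (4.31, 6.49 and 7.01 RPKM) were also lowest in vehicle 7. Ddx3x (61, 65 and 72.6 RPKM), Usp9x (10.4, 10.6 and 11 RPKM) and Zfx (5.33, 5.12 and 5.57 RPKM) were closer among the embryos.

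The tissue carried the expression of dorsal telencephalon, and the 5 markers given for it were close in all 3 embryos. Pax6 (chromosome 2, 105509053 to 105543317 of build NCBIM37) had 13.4, 12.6 and 12.1 RPKM, a mean of 12.7 ± 0.638 (SD, n = 3), and ranked 4999th of all genes by mean RPKM. Emx1 (chromosome 6, 85137432 to 85154456) had 77.1, 76.9 and 76.3 RPKM, 76.8 ± 0.426 (SD, n = 3). Eomes (chromosome 9, 118387330 to 118395250) stood at 62.3, 61.9 and 67.6 RPKM, 63.9 ± 3.14 (SD, n = 3). No embryo lay apart for these genes. Tbr1 (chromosome 2, 61640987 to 61652171) had 51.9, 52.3 and 59.7 RPKM, 54.7 ± 4.41 (SD, n = 3). Neurod6 (chromosome 6, 55627812 to 55631257) had 160, 153 and 170 RPKM, 161 ± 8.77 (SD, n = 3), and ranked 355th. In bulk tissue, fewer cells of a type and less RNA per cell cannot be told apart.

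Detected genes made up 13402 of 37991 (35.3%), the share to set beside each list count below. A further 13617 genes were listed at 0 in all 3 libraries, and 5405 had a mean above 0 and under 0.1 RPKM. Of the 26 radial glia genes, 25 were detected, with a list median of 29.2, 29.4 and 27.1 RPKM. Vim, the intermediate filament of radial glia, led this list at 519, 528 and 467 RPKM. Fabp7, a fatty acid carrier of radial glia, had 191, 139 and 152 RPKM, and Sox2, the stem cell factor, 115, 106 and 111 RPKM. Fam107a, a gene linked to basal radial glia in larger brains, was the lowest at 0.729, 0.703 and 0.979 RPKM, and Hopx and Tnc, named with it as basal radial glia genes, stood at 4.78 to 7.59 and 5.33 to 6.15 RPKM.

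All 15 dorsal pallium identity genes were detected. Lhx2, the cortical selector gene, had 100, 122 and 121 RPKM. Tfap2c was at 28.6, 26.4 and 25 RPKM and Tfap2a, its relative, was the lowest member at 2.08, 1.8 and 2.26 RPKM. All 20 intermediate progenitor genes were detected as well. Neurog2, the proneural factor that drives glutamatergic fate, led with 160, 158 and 167 RPKM, and Neurod4 closed the list at 3.17, 2.38 and 2.77 RPKM.

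Of 37 projection neuron genes, 35 were detected. Sox4 at 230, 221 and 211 RPKM and Neurod6 were the highest, followed by Pou3f3 at 133, 129 and 137 RPKM. Among the factors that divide the cortical layers, Fezf2 (36.5, 44.1 and 40.1 RPKM) and Bcl11b (27.3, 26 and 31 RPKM) are known from the deep layers. Factors known from upper layers lay on either side of them, with Pou3f3 above, and Pou3f2 (11.3, 9.46 and 12.2 RPKM), Cux1 (12.6, 12.3 and 12.8 RPKM) and Cux2 (5.99, 5.94 and 5.21 RPKM) below. Of the general neuronal genes all 36 were detected, led by Tuba1b, Marcksl1 and Tubb2a. Stathmin family members Stmn2, Stmn3 and Stmn4 lay between 21.6 and 89.2 RPKM in single embryos, and Dcx, the microtubule protein of migrating neurons, had 21.4, 21.3 and 23.9 RPKM.

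Cajal-Retzius cells, the reelin-secreting cells of the surface, were represented at low levels. Of their 16 listed genes, 12 were detected, beside 35.3% of all genes. Reln had 4.77, 5.27 and 6.13 RPKM and Trp73, the p73 gene, 1.92, 2.42 and 2.21 RPKM. Calb2, which encodes calretinin, had 6.51, 9.58 and 12.9 RPKM, which was the widest spread in the list among members above 5 RPKM. Cortical hem genes were low in part. Of 18 listed, 10 were detected, beside 35.3% of all genes, with Wnt7b at 23.4, 31.6 and 25.1 RPKM at the top. Wnt3a and Wnt2b, signals that mark the hem itself, stayed between 0.482 and 0.591 RPKM and Lmx1a under 0.17 RPKM.

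Genes of regions outside the telencephalon, and those of choroid plexus, were detected less often than the 35.3% of all genes, a difference given as a description. Of 38 Hox genes 1 was detected, Hoxd1 at 1.90, 1.35 and 2.20 RPKM, and 7 were listed at 0 in all 3 libraries. For diencephalon, midbrain and hindbrain, 7 of 32 genes were detected, none above 6 RPKM, with Irx3 at 4.71, 4.54 and 5.68 RPKM, Lhx9 at 2.77, 3.08 and 3.82 RPKM and Tcf7l2 at 2.62, 2.58 and 2.43 RPKM at the top. Pax8, Nkx2-2, Foxa2, Rax and Pitx1 were listed at 0 in all 3 embryos. Choroid plexus had 3 of 12 genes detected. Its defining marker Ttr was at 0.296, 0.0801 and 0.385 RPKM, and the highest member was the water channel Aqp1 at 7.92, 8.14 and 7.84 RPKM.

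Within each embryo the median log2(RPKM + 1) of the dorsal pallium list exceeded that of the subpallium list by 3.28, 3.25 and 3.65, a mean of 3.39 ± 0.22 (SD, n = 3). The same difference was 4.70 ± 0.07 (SD, n = 3) against diencephalon, midbrain and hindbrain and 4.71 ± 0.08 (SD, n = 3) against Hox genes. All 3 embryos had the same sign, and a two-sided exact sign test of 3 embryos cannot go below 0.25. The lists were chosen with earlier results of these data known, so the shared sign is a description and not a test. In the plot of marker lists the dorsal lists sit well to the right of the regional lists of other brain parts.

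**Figure D1:**
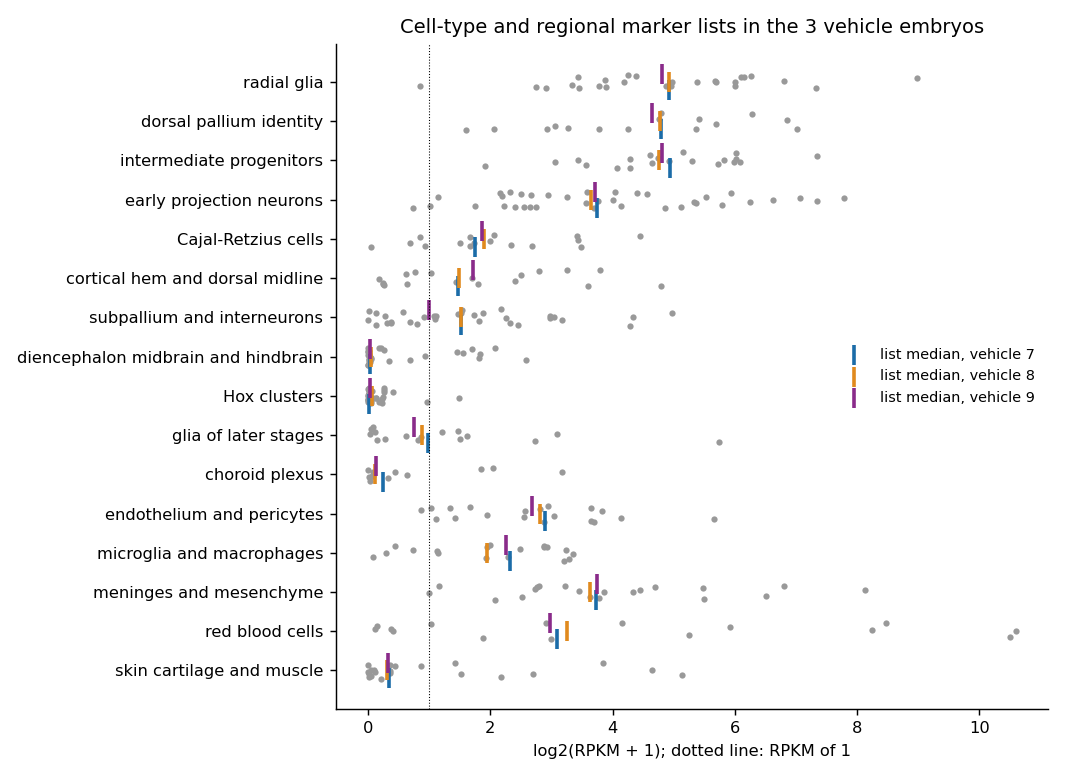
Each grey point is the mean log2(RPKM + 1) position of 1 gene (log2 of the mean RPKM plus 1, horizontal axis) in its marker list (rows), and coloured bars are the list medians of the 3 embryos. Radial glia, dorsal pallium and intermediate progenitor medians lie above 4.5, while the Hox, diencephalon and choroid plexus medians lie under 0.5.

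Cells other than neural cells were on the sections. Of 20 genes of meninges and mesenchyme, 19 were detected, with a summed level of 735, 661 and 754 RPKM. Col1a1, the fibrillar collagen chain, reached 290, 261 and 289 RPKM. Endothelium and pericyte genes were detected for 16 of 19, with Cldn5, the tight junction protein of brain vessels, at 20.5, 15.1 and 14.4 RPKM and a summed level of 176, 163 and 146 RPKM. Microglia genes were lower. Their 13 detected members of 18 summed with the rest to 80.8, 69.1 and 74.1 RPKM, and Cx3cr1 had 3.07, 2.81 and 2.70 RPKM. Red blood cell genes had the largest sums of these groups, 3276, 4507 and 3601 RPKM, with embryonic Hbb-y at 1169, 1639 and 1536 RPKM. Vehicle 8 was the highest for Hba-a1 (1393, 1922 and 1351 RPKM) and for the embryonic Hba-x (260, 450 and 360 RPKM). The epidermal keratins Krt5 (22, 28.3 and 21.5 RPKM) and Krt14 (13.2, 15.6 and 11.4 RPKM) were also detected, and Krt8 and Krt18, keratins of simple epithelia, were at 6.08 and 2.91 RPKM in vehicle 8 against 2.30 and 1.05 RPKM or less in the other embryos. Muscle genes Myod1 and Myog were listed at 0. How far non-neural cells set any other level was not tested.

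Of 16 genes of glia born later than neurons 7 were detected, beside 35.3% of all genes. Gja1, a gap junction gene that radial glia also use, had 48.3, 52.7 and 57.0 RPKM, while Aqp4, S100b and Gfap, of astrocytes, stayed at or under 0.113 RPKM. The radial glia list exceeded this list by a median log2(RPKM + 1) difference of 4.01 ± 0.07 (SD, n = 3).

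Genes of cell division and its control were mostly detected but spread widely over the ranking, with Cdk4 at 239th and Cdk6 at 12857th by mean RPKM. All 20 DNA replication genes and all 20 mitosis genes were detected, with list medians of 41.1, 42.0 and 39.7 RPKM and of 34.3, 34.7 and 34.5 RPKM. Mcm7, of the replicative helicase, had 76.3, 76.6 and 74.6 RPKM, Ccna2, cyclin A2, 68.7, 68.4 and 73.4 RPKM, and Mki67, the proliferation antigen, 44.3, 40.8 and 46.8 RPKM. No embryo stood apart in these. Among G1 regulators Cdk4 had 239, 240 and 235 RPKM and Ccnd2 183, 193 and 207 RPKM, well above Cdk6 at 1.49, 1.42 and 1.70 RPKM. Cdkn2a, the Ink4a and Arf locus, was listed at 0 in 2 embryos. All 14 microcephaly genes were detected, with Nde1 highest at 42.1, 42.0 and 40.0 RPKM and Aspm, the spindle pole gene, at 8.30, 7.88 and 7.83 RPKM.

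Signalling genes of progenitors showed which ligands and receptors the normal tissue makes. All 24 Notch pathway genes were detected, including the ligand Dll1 (25.6, 26.6 and 25.7 RPKM), the receptor Notch1 (14.8, 14.0 and 12.8 RPKM) and the effector Hes5 (62.8, 65.3 and 60.4 RPKM). For FGF, 17 of 34 genes were detected, beside 35.3% of all genes. The receptors Fgfr1 (20.8, 20.2 and 19.2 RPKM) and Fgfr2 (12.2, 13.1 and 10.7 RPKM) were detected, while the ligand Fgf2 itself was at 0.268, 0.290 and 0.290 RPKM and Fgf8, the rostral patterning ligand, was listed at 0 in 2 embryos. Fgfr3, a receptor graded along the cortex from caudal to rostral, had 8.41, 15.2 and 9.61 RPKM and was highest in vehicle 8. So was the caudal factor Nr2f1 (28.5, 40.8 and 32.2 RPKM). Other genes listed for caudal patterning were not all highest there. Emx2 (36.2, 40.5 and 49.0 RPKM) was highest in vehicle 9 and Efna5 (8.48, 6.93 and 8.13 RPKM) in vehicle 7. Of 31 Wnt genes 26 were detected, with Ctnnb1, beta-catenin, at 193, 182 and 190 RPKM and the secreted inhibitor Sfrp1 at 162, 154 and 158 RPKM.

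Of the BAF chromatin subunits that switch during neurogenesis, all 4 of progenitors and 3 of 4 of neurons were detected, the exception being Dpf3 at 0.360, 0.263 and 0.348 RPKM. The BAF subunit Actl6a of progenitors had 37.4, 36.3 and 36.9 RPKM and its neuronal counterpart Actl6b 13.8, 10.7 and 13.6 RPKM. Ptbp1, the splicing repressor of progenitors, and Ptbp2, its neuronal relative, had 86.5, 89.7 and 82.1 RPKM and 72.1, 74.3 and 79.8 RPKM. Of 31 glutamate and GABA receptor genes 12 were detected, again beside 35.3% of all genes, with Grik5 alone above 20 RPKM at 41.0, 42.8 and 39.5 RPKM, and Grin1, the obligate NMDA receptor subunit, at 0.336, 0.360 and 0.460 RPKM. Slc12a2, the chloride importer of immature neurons, had 7.31, 6.74 and 9.31 RPKM against 1.20, 1.18 and 1.21 RPKM for Slc12a5, the chloride exporter of mature neurons.

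Imprinted growth genes and stress genes completed the account of levels. Of 20 imprinted genes 17 were detected, with Nnat at 747, 727 and 764 RPKM, the untranslated RNA H19 at 315, 299 and 297 RPKM and Igf2, the growth factor gene beside it, at 138, 128 and 137 RPKM. Of 26 immediate early and stress genes 16 were detected, beside 35.3% of all genes. Jund (80.8, 80.4 and 75 RPKM) and Jun (61.5, 58.3 and 52.5 RPKM), subunits of the AP-1 factor, were the highest, and Ddit4, a stress-induced inhibitor of mTOR signalling, had 44.7, 46.9 and 44.7 RPKM. Fos, an AP-1 partner of Jun, had 0.184, 0.512 and 0.485 RPKM, and Egr1 0.960, 1.20 and 1.53 RPKM. Of the p53 targets, Bax had 51.7, 45.6 and 57.1 RPKM and Cdkn1a 3.26, 3.19 and 3.22 RPKM, with no embryo apart. Heat shock genes Hspa1a and Hspa1b were listed under 2 RPKM in each embryo, but share 66.3% and 62.3% of their 50-base words with other genes, so these levels are uncertain.

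The top of the ranking held genes whose names need care. Among the 20 genes with the highest mean RPKM, 8 were mitochondrial and 8 had no gene name. Ptma (prothymosin alpha) at 2535, 2496 and 2719 RPKM, Tuba1b, Hba-a1 and Hbb-y were the remaining 4. The 10 highest genes held 8.55%, 8.94% and 8.56% of the summed RPKM. Chosen after their values were seen, 3 unnamed models are described here. Gm10925, on chromosome 1 (24620814 to 24621627), ranked first with 6881, 7347 and 7177 RPKM. Of the 50-base words in mt-Atp6, the mitochondrial gene of an ATP synthase subunit, 99.5% occur in Gm10925 in the GENCODE M21 transcripts (GRCm38), a set later than the one counted. The first 90 coding bases of 2 such genes are printed because all 90 are identical in the gene and in its copy, so that a read from them matches both.
mt-Atp6 and Gm10925: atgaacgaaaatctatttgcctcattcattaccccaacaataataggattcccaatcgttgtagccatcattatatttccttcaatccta
Stmn1 and Gm11223: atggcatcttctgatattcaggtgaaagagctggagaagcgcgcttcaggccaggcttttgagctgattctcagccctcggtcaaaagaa
Stmn1, stathmin 1 (chromosome 4, 134024235 to 134029758), was listed at 4.17, 3.76 and 3.81 RPKM. The unnamed model Gm11223, which shares 87.5% of its 50-base words with Stmn1, was listed at 1170, 1099 and 1263 RPKM. In the same way Gapdh was at 2.71, 2.66 and 2.57 RPKM, with 25.1% of its words shared by 223 other genes, while the copy Gm10566 had 1643, 1652 and 1459 RPKM. For comparison, Actb had 1155 RPKM on average, with 9.12% of its words shared. The entry for the microRNA mir-703 ranked sixth at 2779, 2840 and 3918 RPKM on chromosome 9 (78326335 to 78326442), and all of its 59 words occur in Eef1a1, an elongation factor. Its mature sequence in RefSeq (GRCm38.p6), shown with the seed, bases 2 to 8, in capitals, also lies whole in an Eef1a1 transcript.
mmu-miR-703: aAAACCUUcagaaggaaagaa
Emx1, Neurod6 and Tubb3 share no 50-base word with another gene. Levels of Stmn1, Gapdh, tubulins with shared words such as Tuba1b, and the alpha globins are therefore uncertain, as reads could be split among copies. Hba-a1 and Hba-a2 share 72.3% of the words of Hba-a1, and Tuba1b shares 75.1% of its words with other genes.

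The count files and the RPKM files measure different stretches of the same genes. A count takes reads over the whole span from start to end, introns and nested genes included, while the RPKM values follow the exons. For detected genes whose span overlaps no other gene (7186), the read density over the span, in reads per kilobase on the scale of the RPKM, was a median 23.1% of the exonic RPKM. Across genes the log2 values had a Pearson r of 0.815, a description in which genes are not independent replicates. The ratio fell with gene length. It was a median 100.3% in 791 genes spanning under 2 kb, 38.5% in 979 genes of 5 to 10 kb, 9.20% in 861 genes of 50 to 100 kb and 2.17% in 15 genes over 500 kb. The shortest class lies near 100% in part by construction, as the scale was set so that genes without introns give 100%. Each of the 3 embryos gave the same order of the length classes.

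**Figure D2:**
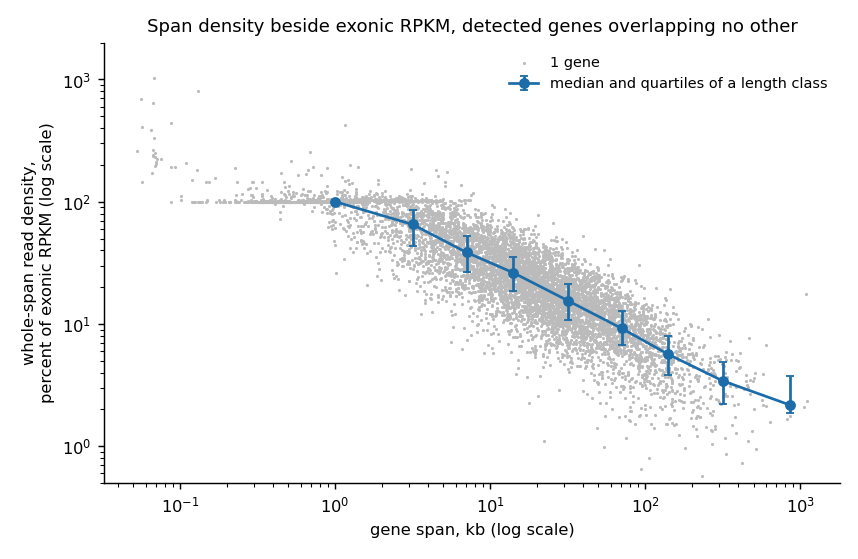
The percentage that whole-span read density makes of exonic RPKM (vertical axis, log scale) against gene span in kilobases (horizontal axis, log scale) for 7186 detected genes overlapping no other. Blue points are class medians with quartile bars, falling from 100.3% to 2.17%. The scale was set so that genes without introns give 100%.

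Of the 5 markers, Neurod6, with a span of 3446 bases, had a span density of 64.3% of its RPKM, Pax6, whose span overlaps 2 others, 64.6%, Eomes 55.9%, Tbr1 51.0% and Emx1, with introns across 17025 bases, 15.3%. The lowest ratios above a mean of 5 RPKM belonged to Fars2, a mitochondrial tRNA synthetase of 420 kb, at 0.728%, Ndufaf2, a complex I assembly factor, at 0.799%, and Elmo1, an engulfment adaptor, at 0.954%. Tusc3, Tbca, Dym, Gphn, Ldb2, Prim2 and Khdrbs3 followed, all under 1.24%. The 10 highest were short RNAs of 0.067 to 0.093 kb, 7 of them mitochondrial tRNAs, 2 snoRNAs, and an entry of 0.093 kb named Uck2. At the highest, Snord87, the ratio was 441%. Among long neuronal genes, Auts2, a neurodevelopmental gene that overlaps no other, had 15.6, 15.4 and 16.3 RPKM and 2.36% of that over its 1106010 base span, and Robo1, the Slit receptor, 3.06%.

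The 3 libraries agreed closely over most genes. Across 37991 genes the Pearson r of log2(RPKM + 1) was 0.997 for vehicle 7 with 8, 0.995 for 7 with 9 and 0.995 for 8 with 9, with Spearman rho of 0.966, 0.964 and 0.963. The median coefficient of variation of a detected gene was 6.14%. In edgeR, the biological coefficient of variation, a spread beyond counting error, was 14.5% over 20201 genes and 9.75% when vehicle 9 was left out, against 17% when vehicle 7 or vehicle 8 was left out. These values use the even counts of vehicle 9 as deposited, and halving them gave 13.1% for the 3 embryos. The values without vehicle 7 or vehicle 8 were not recomputed with halved counts. The highest embryo exceeded the lowest by over 2 times in 230 of 13402 detected genes (1.72%). Only 48 of the genes detected in vehicle 7 and vehicle 8 differed by this much between those libraries.

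Vehicle 9 stood apart in most of the variable genes. Among 9026 detected genes with a mean of at least 5 RPKM, 108 (1.2%) varied by over 2 times. In 55 of the 9026 (0.609%) vehicle 9 was under 0.5 times both other libraries and in 21 (0.233%) over 2 times both. Vehicle 7 gave 1 gene (0.0111%) under 0.5 times both others, and vehicle 8 none. Of the 49 variable genes with a gene name, 42 were lowest in vehicle 9. The 12 with the largest ratios were Oasl2, Usp18, Irgm1, Rps6, Rtp4, Isg15, Mx2, mt-Tp, Dlx2, Rnf213, Ifitm3 and Bst2, and 9 of these are interferon-induced genes. In the plot of libraries against each other, interferon genes lie mostly under the diagonal in vehicle 9 and mostly above it in vehicle 8.

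**Figure D3:**
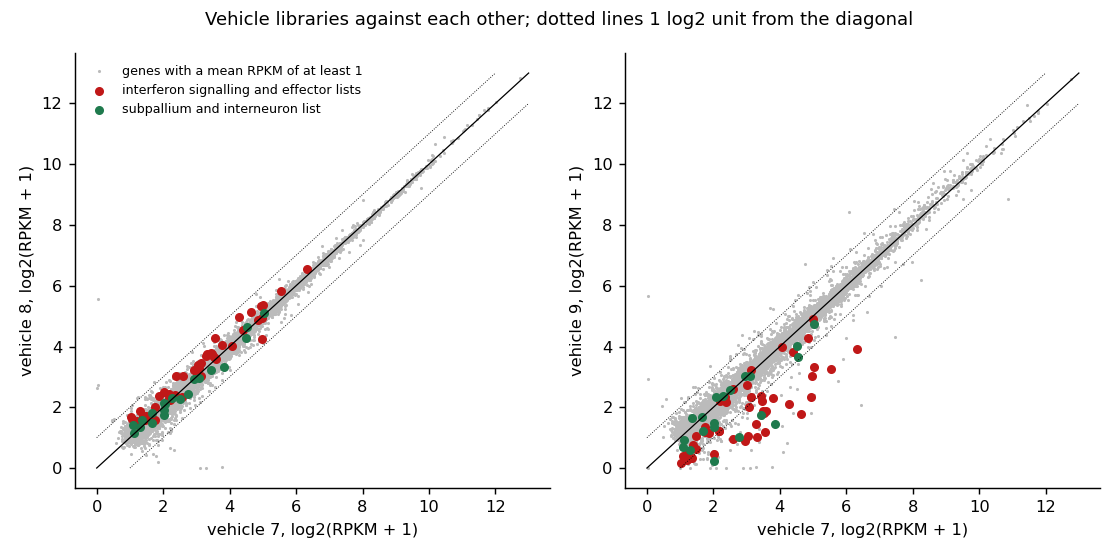
Each grey point is 1 gene with a mean of at least 1 RPKM, placed by log2(RPKM + 1) in vehicle 7 (horizontal axes) and in vehicle 8 or vehicle 9 (vertical axes). Red points mark interferon effectors and signalling factors, green points the subpallium list, and dotted lines lie 1 log2 unit from the diagonal. Of the 46 red points 43 lie under the diagonal in vehicle 9 and 6 in vehicle 8, and 22 and 0 lie under the lower dotted line.

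Genes induced by interferon were high in vehicle 7 and vehicle 8 and low in vehicle 9. Isg15, a ubiquitin-like antiviral protein (chromosome 4, 155573533 to 155574927), had 18.3, 30.2 and 3.34 RPKM. Usp18, the protease that removes Isg15 and damps the receptor (chromosome 6, 121195924 to 121220934), had 24.0, 33.9 and 2.43 RPKM. Oasl2, of the oligoadenylate synthetase family (chromosome 5, 115346943 to 115362243), had 10.8, 18.5 and 1.27 RPKM. The lower of vehicle 7 and vehicle 8 exceeded vehicle 9 by 5.49 times for Isg15, 9.89 times for Usp18 and 8.46 times for Oasl2. Their whole-span counts showed the same split, with 805, 1446 and 158 reads of Isg15. Rtp4, Irgm1 and Mx2 had 29.7, 38.9 and 4.05 RPKM, 8.96, 12.3 and 1.01 RPKM, and 7.30, 9.49 and 1.07 RPKM. The membrane proteins Ifitm3 and Bst2, which block viral entry and release, had 79.6, 93.3 and 14.0 RPKM and 45.4, 55.4 and 8.65 RPKM.

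Lists of interferon genes were drawn up after these values were seen, so their counts are descriptions. Of 43 effector genes measured, 34 had a mean of at least 1 RPKM, and in 27 of these vehicle 9 was under 0.5 times both others, where 167 of 13893 genes (1.2%) were so over all genes at that level. Vehicle 9 was 0.3 RPKM or less for Oas1a, Oasl1, Ifit1 and Ifi44. Ifitm2 (30.7, 30.0 and 29.1 RPKM) and Ube2l6 (4.98, 4.08 and 5.0 RPKM) did not show the split, Ifitm2 being a close relative of Ifitm3. Among signalling factors it was seen in 5 of 12, among them Irf9 (30.5, 18.2 and 7.20 RPKM), Irf7 (6.68, 8.36 and 0.842 RPKM), the RNA sensor Ddx58 (10.2, 12.1 and 2.63 RPKM) and Usp18. Irf3, Mavs, Jak1 and Tyk2, which sit upstream, were level, with Irf3 at 15.9, 15.2 and 14.7 RPKM. The receptor chains Ifnar1 (9.59, 9.31 and 10.4 RPKM) and Ifnar2 (6.39, 6.08 and 5.95 RPKM) were level too. The ligand genes Ifnb1, Ifna1, Ifna2, Ifna4 and Ifng were listed at 0 in all 3 embryos. No gene of antigen presentation (6 at that level) or of the NF-kappaB and inflammatory list (4) met the rule. Beside 1.2% of all genes, a count of 0 says little for lists this short. The 9 measured antigen presentation genes summed to 115, 119 and 85.7 RPKM, lowest in vehicle 9. Among them B2m, the light chain of MHC class I, had 43.9, 44.0 and 29.7 RPKM. The 12 measured NF-kappaB and inflammatory genes summed to 24.6, 24.3 and 22.5 RPKM. Members of the interferon lists made up 32 of the 167 genes (19.2%), a share that depends on which genes were listed. Oas1g (4.55, 6.00 and 0.956 RPKM), a relative of Oas1a, met the rule but was not listed. Beside this, vehicle 9 was the lowest embryo for 14 of 18 endothelium and pericyte genes (median ratio of vehicle 9 to the mean of the others 0.883), for 5 of 14 microglia genes (0.960) and for 1 of 20 meningeal genes (1.06), all at a mean of at least 1 RPKM. Over all 13893 genes at that level vehicle 9 was the lowest embryo for 31.5%, with a median ratio of 1.01. Vehicle 9 is also the library with even counts. The part of either in the result was not tested. Xist and the Y-linked genes separated vehicle 7 from the others instead.

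**Figure D4:**
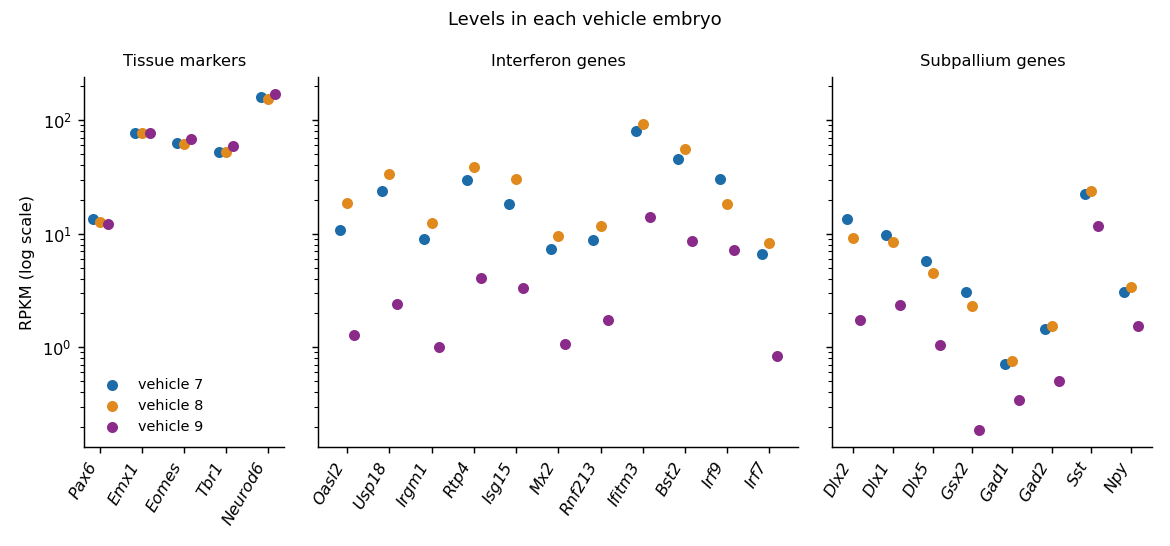
RPKM on a log scale (vertical axis) for each of 3 embryos (colours, with points set slightly apart) in 3 groups of genes. The 5 tissue markers coincide in the 3 embryos, whereas vehicle 9 lies under the other embryos for the interferon genes and the subpallium genes drawn.

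Promoters of these genes were searched on both strands for GAAA followed, after any 2 bases, by another GAAA, the core of the interferon-stimulated response element. Matches may overlap and are counted separately. In RefSeq windows of 300 bases (250 before to 50 after the start, GRCm38.p6), 3.44% of 32851 windows hold it, as do 287 of 8408 detected symbols with a window (3.41%). Of the 28 effector genes at a mean of at least 1 RPKM with a window, 13 (46.4%) hold it. Of the 27 named variable genes lowest in vehicle 9 with a window, 7 (25.9%) hold it, namely Bst2, Ddx58, Eif2ak2, Ifitm3, Irgm1, Isg15 and Sst. A match is a description of the letters and not a bound site. Of these 7, the windows of the 4 with the largest ratios between embryos are shown in the coordinates of that build, to show where the matches, in capitals, lie, and most of the 27 genes hold none. Isg15 holds 3 overlapping matches and Irgm1 2 that begin 30 bases before the start.
Isg15 promoter, chr4:156200769-156201068, minus strand: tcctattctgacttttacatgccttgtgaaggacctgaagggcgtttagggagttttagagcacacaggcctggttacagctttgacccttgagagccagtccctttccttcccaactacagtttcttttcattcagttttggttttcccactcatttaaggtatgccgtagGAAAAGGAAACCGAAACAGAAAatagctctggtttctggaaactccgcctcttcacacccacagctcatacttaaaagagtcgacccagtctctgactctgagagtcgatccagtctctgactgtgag
Irgm1 promoter, chr11:48871371-48871670, minus strand: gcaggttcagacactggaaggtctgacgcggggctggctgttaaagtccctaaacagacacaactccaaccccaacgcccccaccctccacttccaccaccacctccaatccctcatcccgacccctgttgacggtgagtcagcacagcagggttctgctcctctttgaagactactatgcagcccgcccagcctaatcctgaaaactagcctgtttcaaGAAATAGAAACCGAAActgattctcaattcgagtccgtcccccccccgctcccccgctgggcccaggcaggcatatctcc
Ifitm3 promoter, chr7:141010695-141010994, minus strand: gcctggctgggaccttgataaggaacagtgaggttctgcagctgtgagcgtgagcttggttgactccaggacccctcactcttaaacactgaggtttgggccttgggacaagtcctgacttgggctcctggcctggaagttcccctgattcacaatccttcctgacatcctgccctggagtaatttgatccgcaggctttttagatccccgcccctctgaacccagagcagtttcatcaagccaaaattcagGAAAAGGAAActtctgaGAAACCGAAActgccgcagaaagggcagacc
Bst2 promoter, chr8:71537423-71537722, minus strand: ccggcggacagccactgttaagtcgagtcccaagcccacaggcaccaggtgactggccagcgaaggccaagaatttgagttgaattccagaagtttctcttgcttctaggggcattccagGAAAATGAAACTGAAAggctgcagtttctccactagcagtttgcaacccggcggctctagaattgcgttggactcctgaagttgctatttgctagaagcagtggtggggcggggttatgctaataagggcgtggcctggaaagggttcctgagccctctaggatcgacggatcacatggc

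Subpallium genes were the second named group to be low in vehicle 9. Of 32 genes, 16 were detected, beside 35.3% of all genes, and 20 had a mean of at least 1 RPKM. In 6 of the 20 vehicle 9 was under 0.5 times both others, beside 1.2% of all genes at that level. The 6 were Gsx2, Dlx1, Dlx2, Dlx5, Gad2 and Npy. Dlx2 (chromosome 2, 71381466 to 71384811) had 13.3, 9.11 and 1.72 RPKM, Dlx1 9.80, 8.42 and 2.37 RPKM, and Dlx5 5.78, 4.47 and 1.05 RPKM. These are homeobox factors of ventral progenitors and migrating interneurons. Gsx2, which specifies the lateral ganglionic eminence, had 3.08, 2.33 and 0.186 RPKM, with 340, 273 and 20 reads over its span. The GABA-synthesis enzyme Gad2 had 1.45, 1.53 and 0.508 RPKM, and somatostatin (Sst) 22.2, 24.0 and 11.6 RPKM. Of the factors known from the medial eminence, Lhx6 had 1.18, 1.23 and 0.889 RPKM, Nkx2-1 0.478, 0.547 and 0.435 RPKM, and Lhx8 was listed at 0 in 2 embryos and at 0.0266 RPKM in vehicle 9. Lhx6 was under the detection threshold in vehicle 9 alone, and Nkx2-1 and Lhx8 were under it in all 3 embryos. None of these 3 factors met the rule of under 0.5 times both others. The summed list was 154, 146 and 99.3 RPKM. None of the genes of the dorsal pallium, radial glia, intermediate progenitor or projection neuron lists met the rule, out of 15, 25, 20 and 36 at a mean of at least 1 RPKM. These counts lie near the 1.2% of all genes. Vehicle 9 was the lowest embryo for 6, 14, 3 and 6 genes of these lists, in that order. It was the lowest for 13 of the 20 subpallium genes and for 31.5% of all genes at that level. How much ventral tissue each section held was not tested.

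Among other named genes low in vehicle 9, several had copies elsewhere or were very short. Rps6, a ribosomal protein, had 15.6, 15.1 and 1.60 RPKM and shares 43.8% of its words with other genes, and Rpl13 had 21.8, 20.6 and 5.07 RPKM with 24.4% shared. Of the 33 ribosomal protein genes, 4 met the rule, and the list as a whole had a median of 73.0, 70.8 and 88.9 RPKM. The tRNA gene mt-Tp had 52.5, 55.8 and 6.31 RPKM, and mt-Atp8, of 204 bases beside mt-Atp6, had 1886, 1881 and 464 RPKM. The metallothioneins Mt1 and Mt2, zinc and copper binders, had 41.2, 49.1 and 19.8 RPKM and 72.8, 75.3 and 28.6 RPKM. Mt2 shares 45.8% of its words and Mt1 none. Oasl2, Usp18 and Isg15 share 0.138%, 2.81% and 3.96% of theirs, and Dlx2 and Gsx2 none. The part of shared words in any of these values was not tested. Mid1, a gene at the boundary of the pseudoautosomal region, was 12.1, 12.9 and 37.7 RPKM and so highest in vehicle 9.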

How the data were processed

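Sections of dorsal telencephalon from 3 vehicle-injected embryos were sequenced as paired-end libraries, 1 per embryo, per the labels' protocols. CASAVA 1.8, TopHat2 2.0.9, Bowtie2 and bedtools 2.12.0 were used with build NCBIM37 (mm9), per the submitters' processing notes, with no role given. The deposited count of a gene is the number of reads over its whole span, and the deposited fraction is the share of that span covered. The deposited RPKM follow gene models. The tool and strand setting behind either are not given in the sources used here. Deposited totals were 61489462 to 68101511 per sample, and reads are not independent molecules. With its even counts halved, vehicle 9 would hold 32112664, so its precision may be lower than its total implies. The origin of the even counts was not tested.

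All 37991 gene rows of the RPKM files matched the counts sorted by gene ID by symbol. Span density divides counts by span and by the read total the authors scaled RPKM by, recovered from genes without introns (325 to 722 a library). The design had fixed the sum of span reads as the divisor, which would not give 100% for genes without introns. Detection needed an RPKM of at least 1 in all libraries, and logs used a pseudocount of 1. No test between groups applies to 1 group. Spread was estimated with edgeR 4.0.16 in R 4.3.3 (intercept only, TMM, filterByExpr), after a check on simulated counts. Other steps used Python 3.11.15, pandas 2.3.3, numpy 2.4.6 and matplotlib 3.10.9. Members and the 44 gene lists were chosen with earlier results of these data known, and the interferon lists after their values were seen. Of 929 list entries, 919 were measured. Named genes are the 5 markers, the 3 highest and the lowest of a list and members whose role is described, the 20 highest symbols, the 12 most variable named genes and the 10 highest and lowest span ratios. Alternatives were other thresholds, pseudocounts, scalings and leaving out each embryo. FGF2 libraries were not used. Some genes are not reported here.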

Additional observations from a re-analysis of the deposited data

How the results depend on the processing

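No paired analysis was possible because the results describe 1 group and come from no test between groups. Leaving out 1 embryo at a time gave 13521 to 13597 detected genes, a lowest Pearson r of 0.995 to 0.997, 48 to 167 genes over 2-fold, a spread of 9.75% to 17% and an r of span and exonic values of 0.745 to 0.751. The 48 genes, the 0.997 and the 9.75% are those without vehicle 9, and 150 genes those without vehicle 7. A threshold of 5 RPKM gave 8663 detected genes. The lowest Pearson r was 0.991 with a pseudocount of 0.1 and 0.989 over detected genes. The r of span and exonic values, 0.752 over all detected genes, was 0.815 without overlapping genes, 0.759 at 5 RPKM and 0.745 without vehicle 9. The dorsal minus ventral difference was 4.0 with a pseudocount of 0.1 and 2.86 with list means, and kept its sign. With RPKM rescaled to the same sum in each library, Pax6, Emx1, Eomes, Tbr1 and Neurod6 were at 31, 187, 156, 133 and 392. In whole-span reads per kilobase, scaled to the span reads, they were at 7.46, 10.7, 32.6, 25.4 and 94.3. In alternatives chosen after seeing the data, 27 interferon effectors also met the rule with rescaled RPKM and with whole-span counts, 32 among all 43 measured and 14 among the 18 with a mean of at least 5 RPKM. The spread was 13.1% with the counts of vehicle 9 halved and 11.9% to 17.7% under other filters. The cause of these shifts was not tested. Of 44 lists, 20 moved by over 1.5 times in detected members at a threshold of 5 RPKM.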

Other observations

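Beyond the groups above, Cwc22, a splicing factor with 18.5% of its 50-base words shared with other genes, had 98.6, 105 and 33.8 RPKM in vehicle 7, 8 and 9. The gene was chosen after its values were seen.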
